A study of Mus musculus with 8 samples.

Results

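Snx6, Ap3m1, Gapvd1, Nsf, Mtmr2 and Atp6v0a1 encode proteins that sort cargo at endosomes, carry it to lysosomes and fuse the vesicles on the way. They are 6 of the 417 gene names in a table of transcript levels from mature (metaphase II) mouse oocytes. They were chosen by name from rows already known to differ between the 2 genotypes, so their levels in KO against Ctrl are given as a description and carry no test. All 6 passed the filter on low values, which asks for 1 TPM or more on average across the 8 libraries. Atp6v0a1 has 2 rows and each of the others has 1, which makes 7 rows of 469.

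The KO group holds 4 libraries from females labelled L/L cre with genotype KO, aged 6 months. The Ctrl group holds 4 libraries from L/L females with genotype WT, also aged 6 months. Both groups share the L/L alleles, and only the KO females also carry Cre, an enzyme that cuts out stretches of DNA between its target sites. The design text gives the females as about 6 months old and puts the question as one of oocyte transcripts under raised reactive oxygen species in the mitochondrial matrix. The labels name neither the targeted gene nor the promoter that drives Cre, so loss of the target was not checked here. Each library came from merged oocytes lysed together and amplified with Smart-seq2, which copies whole transcripts from tiny amounts of RNA. TPM corrects a transcript's reads for its length and sets every library to one common total, so levels can be compared between genes.

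Endosomes receive membrane and proteins taken in at the cell surface. Rab5, a small GTPase, and a phosphoinositide lipid made by Vps34 mark the early endosome. From there the retromer and its sorting nexins return receptors to the Golgi, adaptor complexes such as AP-3 pick cargo for lysosomes, and the V-ATPase pumps protons that acidify the lumen. SNARE proteins drive each fusion step, and the ATPase NSF with its SNAP partners takes spent SNARE complexes apart so that they can be used again. In oocytes this traffic serves uptake of nutrients and of membrane proteins, secretion of the zona pellucida proteins and, at fertilization, the release of cortical granules.

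The promoters are printed for the 3 genes whose window upstream of a RefSeq transcription start held one of 4 less common motifs, searched on both strands. The search covered the E-box CACGTG, its longer lysosomal form GTCACGTGAC (the palindrome of the CLEAR element bound by TFEB), the antioxidant response core TGACNNNGC (bound by NRF2) and the palindrome GCGCATGCGC (bound by NRF1, nuclear respiratory factor). CACGTG lies inside GTCACGTGAC, so both were counted where the longer one occurred. Each run below gives the 250 bases before the start, from RefSeq on GRCm38.p6, written 5′ to 3′ on the gene's strand with the matched motif in capitals.
Nsf (chr11:103954057-103954306, minus strand): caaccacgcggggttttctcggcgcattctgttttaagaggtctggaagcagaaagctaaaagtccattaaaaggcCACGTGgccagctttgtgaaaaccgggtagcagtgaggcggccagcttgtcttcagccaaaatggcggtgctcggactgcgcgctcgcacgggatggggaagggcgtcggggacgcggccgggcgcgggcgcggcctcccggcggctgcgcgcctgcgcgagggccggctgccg
Mtmr2 (chr9:13748929-13749178, plus strand): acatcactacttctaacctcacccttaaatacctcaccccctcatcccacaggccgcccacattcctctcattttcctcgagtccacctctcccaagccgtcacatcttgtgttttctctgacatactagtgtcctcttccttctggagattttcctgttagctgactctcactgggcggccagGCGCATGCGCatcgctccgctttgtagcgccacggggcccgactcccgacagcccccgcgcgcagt
Atp6v0a1 (chr11:101010148-101010397, plus strand): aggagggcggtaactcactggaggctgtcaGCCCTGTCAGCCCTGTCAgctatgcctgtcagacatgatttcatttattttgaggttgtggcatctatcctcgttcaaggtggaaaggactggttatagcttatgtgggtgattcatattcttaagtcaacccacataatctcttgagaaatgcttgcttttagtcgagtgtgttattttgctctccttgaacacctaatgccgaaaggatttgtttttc
The Nsf window held CACGTG once, a motif found in 6.02% of 32851 RefSeq windows of the same length. The Mtmr2 window held GCGCATGCGC, found in 0.782% of windows, and it belongs to the first of 3 starts listed for this gene, inside the span that GENCODE gives it. In the Atp6v0a1 window the capitals cover matches to the reverse complement of TGACNNNGC, found in 10.2% of windows, and this window too lies inside the gene's GENCODE span. GTCACGTGAC, found in 0.24% of windows, was in none of the windows of the 6 genes. The common GC box GGGCGG was in windows of all the genes except Nsf (32.7% of all windows), and CCAAT was in that of Ap3m1 alone (33.8% of all windows). A match is a string of letters in this window and was not tied to binding or to the levels.

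Sequencing depth is unknown, since TPM keep no depth. The listed rows summed to 12869 to 19916 TPM in the KO libraries and 32000 to 42538 TPM in the Ctrl libraries. The group means of every row differed by 2.04-fold or more, and of 402 genes tested with limma on log2(TPM + 1), 377 (93.8%) passed a Benjamini-Hochberg adjusted p of 0.05, with 147 higher and 230 lower in KO. Median-of-ratios scaling turned this split to 145 higher and 52 lower, and quantile normalization to 146 higher and 94 lower. Both scalings were taken from the listed genes alone, whose rows all differ between the groups. They cannot tell which split is nearer to the oocytes. No label gives the animals behind each library, so spread and p-values measure differences between these libraries, which may be technical. None of the 16 oocyte markers, the 16 cumulus and granulosa markers or the 20 markers of stroma, endothelium, blood and immune cells looked up has a row, so the cell type was not checked here.

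The Ctrl libraries fell into pairs, and this touches nearly every value below. In 235 of the 402 genes (58.5%) Ctrl replicates 2 and 4 both lay above or both lay below Ctrl replicates 1 and 3. The other 2 ways of pairing the 4 Ctrl libraries separated them in 21.6% and 16.9% of the genes. Without ties, 4 values always split into a higher and a lower pair in 1 of these 3 ways. The shares are thus read against each other and not against 0. Snx6, Ap3m1, Gapvd1, Nsf and Mtmr2 are among the 235. Atp6v0a1 split another way, with Ctrl replicates 1 and 2 above Ctrl replicates 3 and 4. In 14 genes, Gapvd1 and Nsf among them, Ctrl replicates 2 and 4 were listed at 0 while Ctrl replicates 1 and 3 were above 0. Any other pair of Ctrl libraries stood at 0 in this way in 0 to 4 genes. The labels give no difference between these libraries, the pattern was seen in the data, and its part in the results was not tested. Differences are therefore given with all libraries, without Ctrl replicates 2 and 4, and without Ctrl replicates 1 and 3.

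Ap3m1, Gapvd1, Nsf and Atp6v0a1 were higher in KO, and Snx6 and Mtmr2 were lower. On the log2(TPM + 1) scale Nsf had the largest difference of the 6 with all libraries, and Atp6v0a1 had it once Ctrl replicates 2 and 4 were left out. By the ratio of group means with all libraries Atp6v0a1 came first, at 6.83-fold, with Gapvd1 at 4.18-fold and Nsf at 4.08-fold. The Ctrl means under these ratios were low, at 0.598 TPM for Atp6v0a1, 0.508 TPM for Gapvd1 and 4.84 TPM for Nsf. The KO libraries lay wholly above the Ctrl libraries for Ap3m1, Nsf and Atp6v0a1, and the groups overlapped for Snx6, Gapvd1 and Mtmr2. Over all tested genes the groups did not overlap in 56.5%. All 6 genes were among those past the limma threshold, which 93.8% of the listed genes passed, and nothing is read from this, since the genes were chosen on the same contrast.

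**Figure D1:**
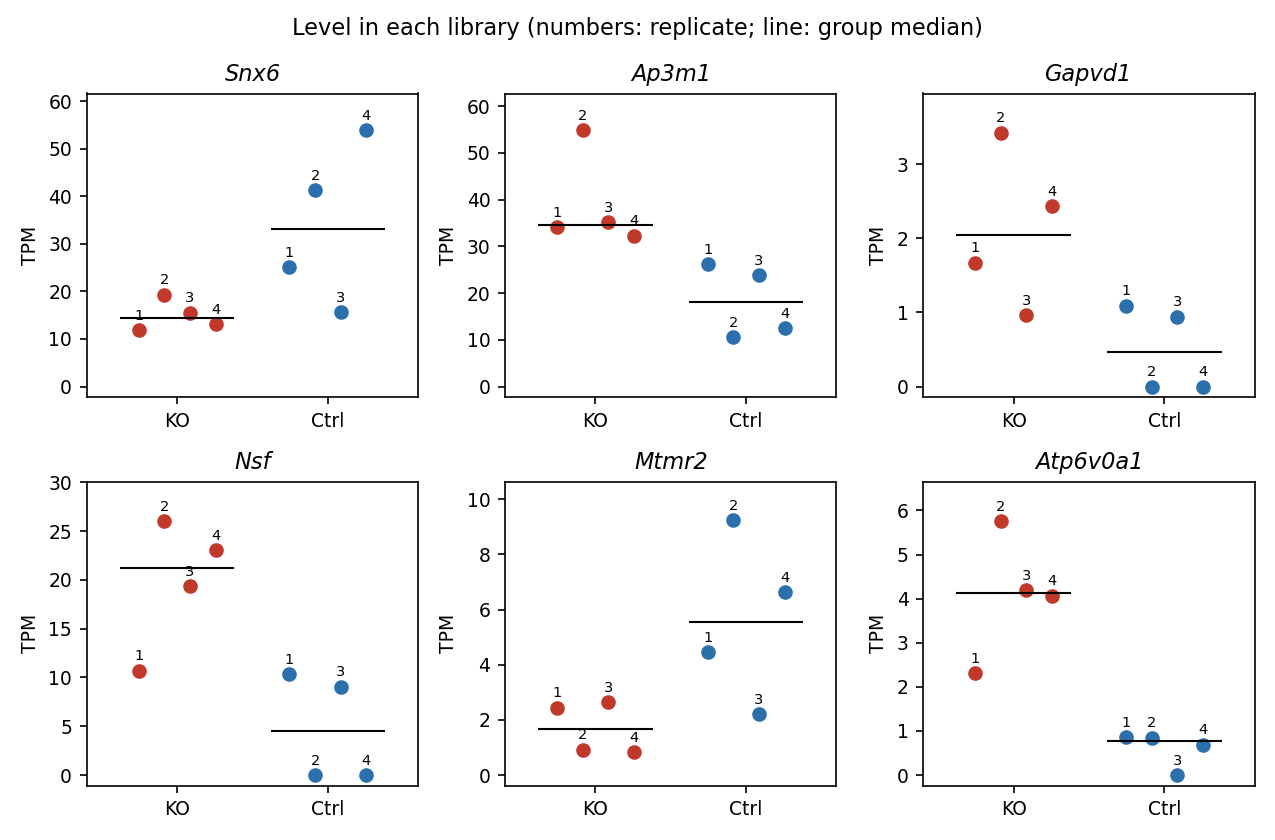
TPM of each gene (vertical axes) in the 4 KO and the 4 Ctrl libraries, with the replicate number beside each point and a line at the group median; for Atp6v0a1 both rows are summed. Ctrl replicates 2 and 4 sit below Ctrl replicates 1 and 3 for Ap3m1, Gapvd1 and Nsf and above them for Snx6 and Mtmr2.

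At the sorting step, Snx6 is a sorting nexin that pairs with Snx1 or Snx2 to bend endosomal membrane into the tubules along which retromer cargo leaves. It lies on chromosome 12 from 54746349 to 54795703 (GRCm38, minus strand), with 8 annotated transcripts in GENCODE M21, of which 2 are protein coding. Its level was 11.8, 19.3, 15.5 and 13.1 TPM in KO replicates 1 to 4, against 25.1, 41.3, 15.7 and 53.9 TPM in Ctrl replicates 1 to 4. Ctrl replicate 3 stood inside the KO range, and the other Ctrl libraries stood above it. The means were 14.9 ± 3.29 TPM in KO and 34.0 ± 17.0 TPM in Ctrl (SD, n = 4 each), 2.28-fold lower in KO, close to the smallest ratio in the table. The difference on the log2(TPM + 1) scale was -1.02 ± 0.42 (SE), beside a median of -1.05 over all 402 genes tested. It was -0.41 without Ctrl replicates 2 and 4, -1.62 without Ctrl replicates 1 and 3, and -0.23 ± 0.33 (SE) under median-of-ratios scaling.

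Ap3m1 encodes the medium subunit of AP-3, the subunit that reads sorting signals in cargo bound for lysosomes. The gene spans chromosome 14 from 21031442 to 21052508 (GRCm38, minus strand) and has 8 annotated transcripts, 5 of them protein coding. KO replicates 1 to 4 had 34.2, 54.8, 35.2 and 32.3 TPM, and Ctrl replicates 1 to 4 had 26.2, 10.6, 23.8 and 12.5 TPM. All KO libraries were above all Ctrl libraries, and KO replicate 2 stood apart above the other 3. Group means were 39.1 ± 10.5 TPM in KO and 18.3 ± 7.85 TPM in Ctrl (SD, n = 4 each), a 2.14-fold ratio. On the log2(TPM + 1) scale the difference was 1.12 ± 0.40 (SE). Leaving out Ctrl replicates 2 and 4 gave 0.60 and leaving out Ctrl replicates 1 and 3 gave 1.65, while median-of-ratios scaling gave 1.88. The last exons of Ap3m1 share 2090 bases with those of Vcl, the vinculin gene on the opposite strand (chromosome 14 from 20929398 to 21033676), and reads from the 2 genes cannot be told apart there without strand. Ap3m1 also has a processed pseudogene, Ap3m1-ps, at 99.4% identity over 1258 bases, so its reads may be split between them. Neither Vcl nor Ap3m1-ps has a row.

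Gapvd1 encodes an activator that loads GTP onto Rab5 on early endosomes. It lies on chromosome 2 from 34674594 to 34755232 (GRCm38, minus strand), with 15 annotated transcripts, 8 of them protein coding. The KO libraries had 1.67, 3.43, 0.965 and 2.43 TPM in replicates 1 to 4. In Ctrl the values were 1.09 TPM in replicate 1 and 0.94 TPM in replicate 3, and replicates 2 and 4 were listed at 0. KO replicate 3 lay between the Ctrl values that were above 0, so the groups overlapped. The log2(TPM + 1) difference was 1.07 ± 0.40 (SE) with all libraries, 0.57 ± 0.48 (SE) without Ctrl replicates 2 and 4, and 1.58 without Ctrl replicates 1 and 3. A zero in TPM can be a failed estimate of the transcript or its absence, and which of these holds was not tested. The size of the difference rests in large part on these zeros.

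Nsf encodes the ATPase that disassembles SNARE complexes after membrane fusion. Its locus is chromosome 11 from 103821782 to 103954056 (GRCm38, minus strand), where 3 of 10 annotated transcripts are protein coding. In KO replicates 1 to 4 it stood at 10.7, 26.0, 19.3 and 23.1 TPM. Ctrl replicates 1 and 3 had 10.3 and 9.06 TPM, and Ctrl replicates 2 and 4 were listed at 0. KO replicate 1 was close to the higher Ctrl libraries, and the other KO libraries were well above them. The difference was 2.60 ± 0.76 (SE) on the log2(TPM + 1) scale. Without Ctrl replicates 2 and 4 it was 0.89 ± 0.42 (SE), and without Ctrl replicates 1 and 3 it was 4.31.

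Mtmr2 encodes a myotubularin phosphatase that removes the phosphoinositide mark of early endosomes. It lies on chromosome 9 from 13748410 to 13806481 (GRCm38, plus strand), with 5 protein-coding transcripts among 9. Its level was 2.44, 0.918, 2.63 and 0.823 TPM in KO replicates 1 to 4, against 4.46, 9.24, 2.21 and 6.63 TPM in Ctrl replicates 1 to 4. Ctrl replicate 3 was lower than KO replicates 1 and 3, and the other Ctrl libraries were above every KO library. The group means were 1.70 ± 0.964 TPM in KO and 5.64 ± 3.0 TPM in Ctrl (SD, n = 4 each), 3.31-fold lower in KO. This was a difference of -1.24 ± 0.51 (SE) on the log2(TPM + 1) scale, or -0.70 ± 0.54 (SE) without Ctrl replicates 2 and 4 and -1.78 without Ctrl replicates 1 and 3. Median-of-ratios scaling gave -0.65. A processed pseudogene, Gm4880, matches Mtmr2 at 95.3% identity over 1567 bases and has no row.

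**Figure D2:**
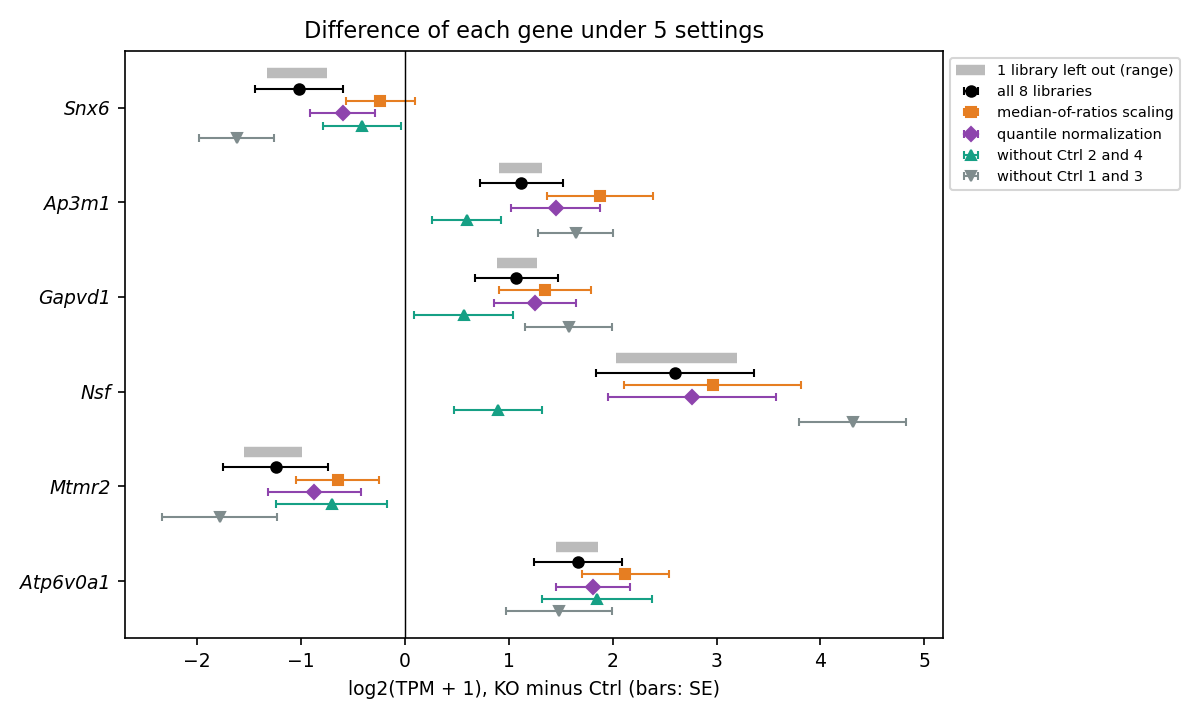
Difference of each gene between KO and Ctrl on the log2(TPM + 1) scale (horizontal axis, bars are SE) with all 8 libraries, under 2 scalings and with either pair of Ctrl libraries left out; grey bars span the values with 1 library left out. Leaving out Ctrl replicates 2 and 4 brings Nsf to 0.89 and Snx6 to -0.41, and leaves Atp6v0a1 at 1.85.

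Atp6v0a1 encodes an isoform of the large membrane subunit of the V-ATPase, the part through which protons pass. The gene lies on chromosome 11 from 101009452 to 101063719 (GRCm38, plus strand), and its 10 annotated transcripts include 5 that are protein coding. Summed over both rows, the level was 2.31, 5.75, 4.20 and 4.07 TPM in KO replicates 1 to 4, against 0.859, 0.849, 1.16e-08 and 0.683 TPM in Ctrl replicates 1 to 4. Every KO library was above every Ctrl library, and Ctrl replicate 3 was the lowest. The difference was 1.67 ± 0.42 (SE) on the log2(TPM + 1) scale, and it stayed at 1.85 ± 0.53 (SE) without Ctrl replicates 2 and 4 and at 1.48 ± 0.51 (SE) without Ctrl replicates 1 and 3. Between these 2 choices Atp6v0a1 had the smallest change of this set. The choices follow the split that the other genes show and Atp6v0a1 does not, so nothing is read from this ranking. Leaving out Ctrl replicates 1 and 2, or 3 and 4, was not tried.

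The rows of Atp6v0a1 were both higher in KO. The first row had 0.825, 2.23, 1.89 and 1.46 TPM in KO replicates 1 to 4, against 0.102, 0.809, 1.16e-08 and 0 TPM in Ctrl replicates 1 to 4. The second row had 1.48, 3.52, 2.31 and 2.61 TPM in KO replicates 1 to 4, against 0.757, 0.04, 0 and 0.683 TPM in Ctrl replicates 1 to 4. In the KO libraries the first row made up 35.8% to 45.0% of the sum. Among the Ctrl libraries its share was 11.8% in replicate 1, 95.3% in replicate 2 and 0% in replicate 4, so nearly the whole of each sum stood in a single row there. Ctrl replicate 3 was at or next to 0 in both rows. No transcript identifier comes with the rows, so it is not known which transcripts they are.

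**Figure D3:**
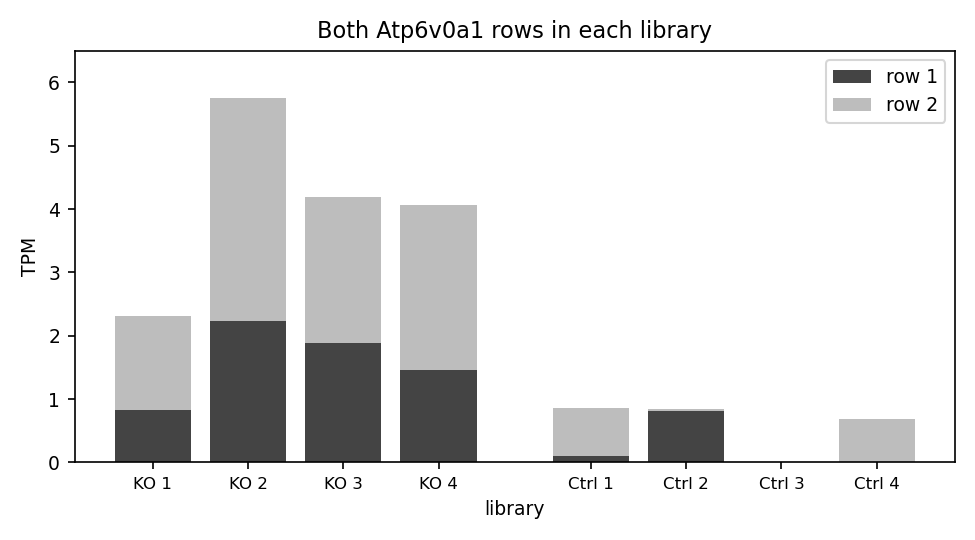
TPM of both Atp6v0a1 rows (vertical axis, stacked) in each of the 8 libraries. The KO libraries hold both rows at 2.31 to 5.75 TPM in sum, and each Ctrl library holds mainly 1 row or nearly none.

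Ordered by mean TPM in KO, the genes ran Ap3m1, Nsf, Snx6, Atp6v0a1, Gapvd1 and Mtmr2. The ranges of neighbours in this order did not overlap between Ap3m1 and Nsf or between Snx6 and Atp6v0a1, and overlapped for the other neighbours. In Ctrl the order was Snx6, Ap3m1, Mtmr2, Nsf, Atp6v0a1 and Gapvd1, where the ranges of Ap3m1 and Mtmr2 alone did not overlap among neighbours. KO replicate 2 was the highest KO library for every gene but Mtmr2. It also had the lowest sum of listed rows, 12869 TPM, where the next lowest KO library had 16507 TPM, and the part of this in the levels was not tested.

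After each group's mean was taken away, Ap3m1 and Nsf had a Pearson r of 0.90 over the 8 libraries, Ap3m1 and Gapvd1 0.86, and Gapvd1 and Nsf 0.82. Mtmr2 ran against all 3 of them, at -0.71 with Ap3m1, -0.85 with Gapvd1 and -0.77 with Nsf. Snx6 was at -0.74 with Nsf and 0.60 with Mtmr2, but these signs come from the Ctrl libraries. Among the KO libraries Snx6 and Nsf were both highest in replicate 2 and lowest in replicate 1. Atp6v0a1 was near 0 with Ap3m1 (-0.03) and Gapvd1 (-0.01) and at 0.71 with Snx6. The values near 0 join groups that differ, since in KO these 3 genes were all highest in replicate 2, while in Ctrl replicate 3 Atp6v0a1 was at its lowest where Ap3m1 and Gapvd1 were above their group means. These values are a description without a test, and the libraries share the totals to which TPM are scaled. All the genes but Atp6v0a1 share the split of Ctrl replicates 2 and 4 from Ctrl replicates 1 and 3.

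**Figure D4:**
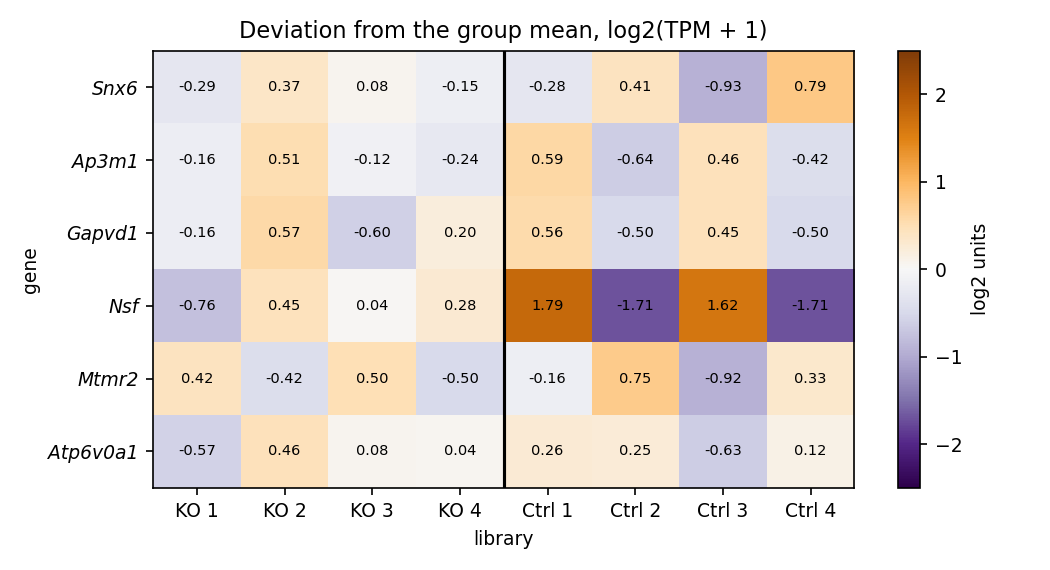
Deviation of each library from its group's mean on the log2(TPM + 1) scale, for the 6 genes (rows) in the KO and Ctrl libraries (columns). For Nsf the Ctrl deviations are 1.79 and 1.62 in replicates 1 and 3 and -1.71 in replicates 2 and 4, and Ap3m1 and Gapvd1 have the same signs.

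The same measure was taken over the tested protein-coding genes, without names of Gm with digits and names ending in Rik. The closest to Gapvd1 was Tfdp1, a partner of E2F transcription factors (r = 0.97). Tfdp1 had 2.74, 6.90, 2.41 and 4.70 TPM in KO replicates 1 to 4, against 1.62 and 2.07 TPM in Ctrl replicates 1 and 3 and 0 in Ctrl replicates 2 and 4. The nearest to Nsf was Ppme1, a methylesterase of protein phosphatase 2A (r = 0.96), at 20.6, 75.8, 29.8 and 35.8 TPM in KO replicates 1 to 4, against 11.5 and 33.7 TPM in Ctrl replicates 1 and 3 and 0 in Ctrl replicates 2 and 4. Both thus shared the zeros of Gapvd1 and Nsf. Snx6 was nearest to Ralgps2 (r = 0.95) and Ttc4 (0.94), and Mtmr2 to Hmgb1 (0.97) and Actr8 (0.93), all lower in KO. Naa30 came second for Gapvd1 (0.93). For Ap3m1 the nearest were Hikeshi (0.99) and Col4a3bp (0.97), and Hikeshi was second for Nsf (0.95). Hikeshi, the nuclear importer of Hsp70, was at 0 to 0.355 TPM in KO and 1.29 to 3.40 TPM in Ctrl, lower in KO where Ap3m1 and Nsf were higher. The nearest to Atp6v0a1 were Rbm48 (0.90) and Terf2 (0.86), which were lower in KO as well. Hikeshi, Col4a3bp, Rbm48 and Terf2 thus ran with these genes by this measure and had the opposite direction between KO and Ctrl. In KO, however, Hikeshi, Col4a3bp and Terf2 were at or next to 0 outside replicate 2, which had 0.355, 1.73 and 1.21 TPM. By ranks (Spearman) the correlation with Atp6v0a1 was 0.67 for Rbm48 and 0.95 for Terf2. All the genes named here were picked as the highest of many over only 8 libraries.

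The pathway around these genes was read from 9 lists of endosomal, lysosomal and secretory genes, 409 genes besides the 6. Of these, 9 have a row and 8 passed the filter on low values. All 8 passed the limma threshold, 7 lower and 1 higher in KO, beside 57.2% of all tested genes lower and 36.6% higher. They have a row in a table whose rows all differ between the genotypes, so, as for the 6 genes, nothing is read from these calls and their values are given as a description, with differences on the log2(TPM + 1) scale. Their median difference was -1.30 on the log2(TPM + 1) scale, against -1.05 over all tested genes. No other gene of the retromer and sorting nexin list (27), the adaptor and clathrin list (36), the V-ATPase list (34) or the lysosomal list (66) has a row, so these complexes were not analysed here beyond the genes above. Other trafficking genes have a row but are in none of the lists. Among them Appl1 (-1.48) and Rufy1 (-1.70) were lower in KO, and Eps15 (1.02) and Mia3 (2.64) were higher.

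Around Rab5 and its lipid, the other genes of these lists that have a row were lower in KO. Rbsn, the Rab5 effector rabenosyn, had 3.36, 0.397, 0.0346 and 0 TPM in KO replicates 1 to 4, against 3.66, 0.811, 3.14 and 7.48 TPM in Ctrl replicates 1 to 4, a difference of -1.39 ± 0.56 (SE). Pik3r4, the regulatory subunit of the Vps34 lipid kinase, had 1.08, 0.413, 0.795 and 0.243 TPM in KO replicates 1 to 4, against 1.04, 1.40, 2.94 and 14.5 TPM in Ctrl replicates 1 to 4 (-1.38 ± 0.56 SE), or -0.74 without Ctrl replicate 4. For both genes the groups overlapped. Pik3c2a, a lipid kinase of clathrin-coated pits and endosomes, had 16.6, 6.81, 12.6 and 10.2 TPM in KO replicates 1 to 4 and 20.1, 41.8, 19.6 and 32.0 TPM in Ctrl replicates 1 to 4, summed over 2 rows. The KO libraries lay below the Ctrl libraries (-1.22 ± 0.41 SE). Mtmr2, the phosphatase acting on such lipids, was lower in KO as well. Without Ctrl replicates 2 and 4 the differences were -1.47 for Rbsn, -0.83 for Pik3r4 and -0.79 for Pik3c2a. Without Ctrl replicates 1 and 3 they were -1.31, -1.93 and -1.64.

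At fusion, Napg, the gamma form of the SNAP proteins that recruit NSF to SNARE complexes, was at 0, 0.791, 0.133 and 0.12 TPM in KO replicates 1 to 4, against 0.834, 3.85, 0.524 and 3.25 TPM in Ctrl replicates 1 to 4. It was lower in KO (-1.17 ± 0.41 SE), while Nsf itself was higher. Without Ctrl replicates 2 and 4 the difference of Napg was -0.45 ± 0.29 (SE), and without Ctrl replicates 1 and 3 it was -1.89. Ctrl replicates 2 and 4 were the highest for Napg and at 0 for Nsf. Vta1, a cofactor of the VPS4 ATPase that recycles ESCRT complexes in multivesicular endosomes, had 8.98, 31.4, 5.68 and 6.83 TPM in KO replicates 1 to 4 and 3.77, 2.31, 2.66 and 3.53 TPM in Ctrl replicates 1 to 4. All KO libraries were above all Ctrl libraries, with a difference of 1.5 ± 0.53 (SE), or 1.0 without KO replicate 2. This difference of Vta1 was 1.45 without Ctrl replicates 2 and 4 and 1.56 without Ctrl replicates 1 and 3.

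Between the endoplasmic reticulum and the Golgi, Cog4, a subunit of a Golgi tethering complex, was at 1.56 TPM in KO replicate 1 and at 0 in KO replicates 2 to 4, against 1.67, 3.51, 1.85 and 6.16 TPM in Ctrl replicates 1 to 4. The groups did not overlap (-1.65 ± 0.45 SE). Sec31a of the COPII coat was lower too, with 16.7 ± 8.14 TPM in KO and 38.5 ± 21.3 TPM in Ctrl (SD, n = 4 each), a difference of -1.19 ± 0.49 (SE), or -0.75 without KO replicate 4. Arfgef1, an activator of Arf GTPases at the Golgi, had 0.475 to 4.25 TPM in KO and 2.63 to 18.6 TPM in Ctrl (-1.41 ± 0.61 SE), or -0.86 without Ctrl replicate 4. Leaving out Ctrl replicates 2 and 4 gave -1.125 for Cog4, -0.90 for Sec31a and -0.71 for Arfgef1. Leaving out Ctrl replicates 1 and 3 gave -2.17, -1.48 and -2.12. Trappc10, a subunit of a TRAPP tethering complex, was under the filter, with 0.848 to 2.25 TPM in KO, against 0 in Ctrl replicates 1 to 3 and 0.989 TPM in Ctrl replicate 4. Of the 8 genes, Cog4 and Vta1 passed the limma threshold under median-of-ratios scaling and the other 6 did not. With 1 library left out, 3 passed without KO replicate 2 and without Ctrl replicate 2, 4 without KO replicate 4 and without Ctrl replicate 4, and 5 without KO replicate 3. Without Ctrl replicates 2 and 4 together 0 of the 8 passed by limma, with 2 at an unadjusted p under 0.05. With Ctrl replicates 1 and 3 left out instead, 6 of the 8 passed.

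**Figure D5:**
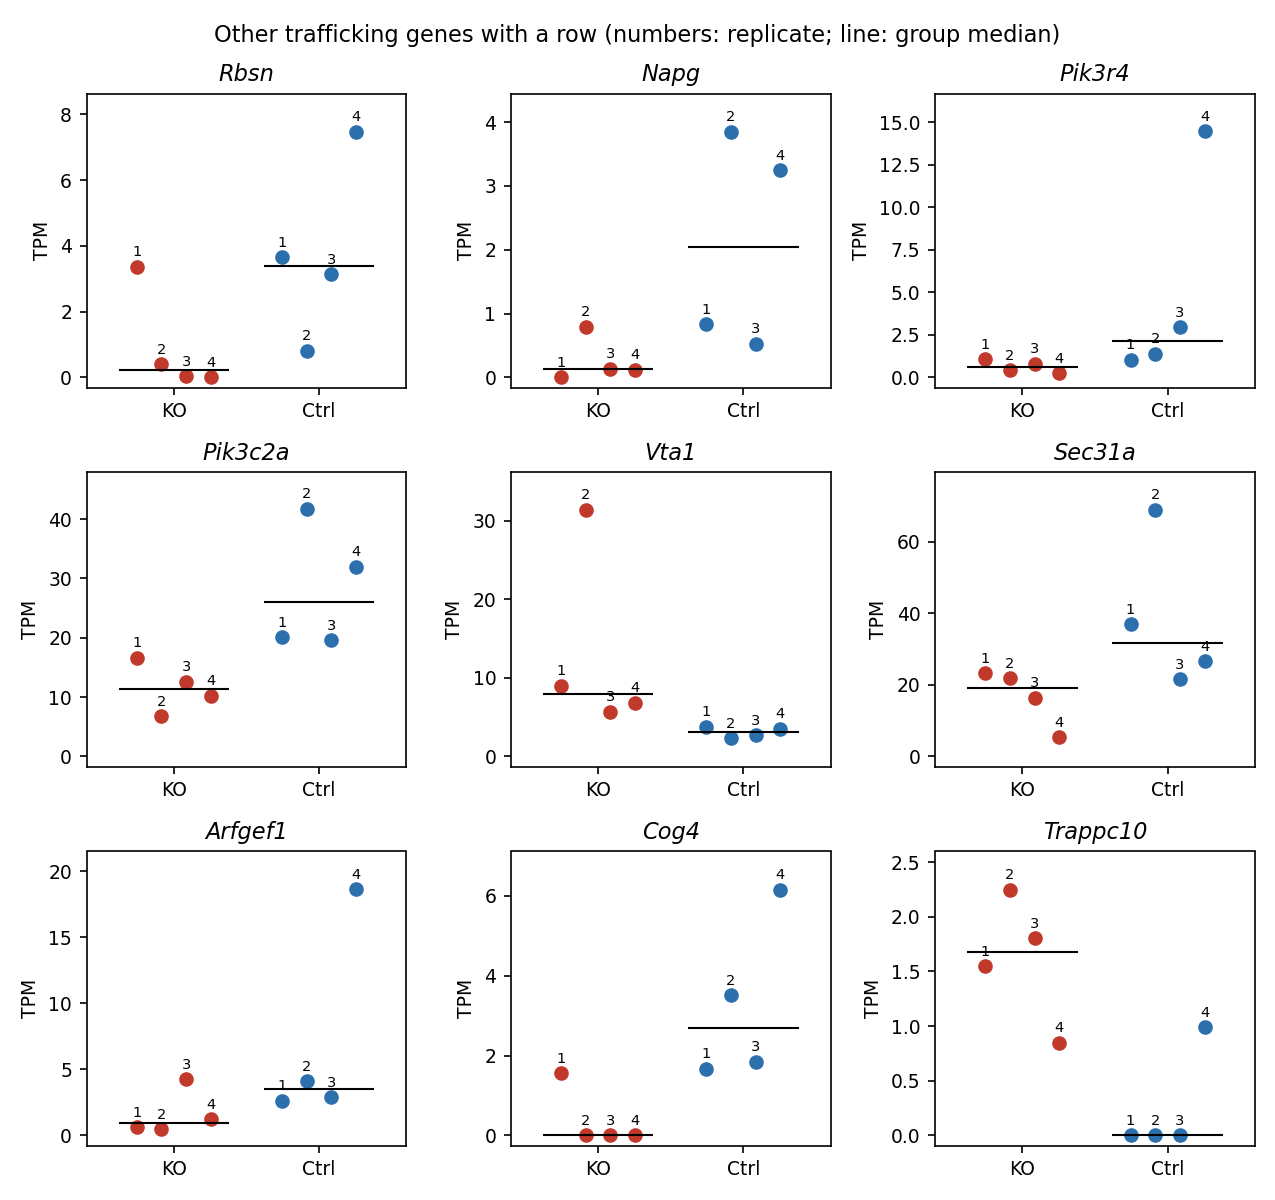
TPM (vertical axes) of the 9 other genes of the trafficking lists that have a row, in the 4 KO and the 4 Ctrl libraries, with the replicate number beside each point and a line at the group median. Vta1 and Trappc10 are higher in KO and the other genes are lower, and Ctrl replicate 4 stands far above the rest for Pik3r4 and Arfgef1.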

How the data were processed

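The deposited table holds TPM per transcript row, made by the authors with kallisto 0.46.2 and sleuth 0.30.1 on GRCm38, per the submitters' processing notes. The sources used here give neither the annotation release nor the rule that chose the 469 rows. Columns were matched to samples by name. Rows of one gene name were summed, genes averaging 1 TPM or more were kept, and log2(TPM + 1) was fitted with limma 3.58.1 in R 4.3.3 (eBayes with trend, two-sided, no covariate, Benjamini-Hochberg over all 402 genes, threshold 0.05). The log2(TPM + 1) scale understates changes of low genes. No count test was used, because TPM hold no read counts or depth.

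The 6 genes, the lists and the tests were chosen with earlier results of these data known. Named genes are the 6, each other list gene with a row, and per gene the 2 tested protein-coding genes of highest Pearson r over 8 libraries after the group means were taken away. Names of Gm with digits or ending in Rik were left out of that search. The alternatives tried were quantile normalization and median-of-ratios scaling (both from the listed genes alone), pseudocounts of 0.1 and 5, a filter at a mean of 5 TPM or none, eBayes without trend, the replicate number as a block, rows unsummed, and each library left out. Leaving out Ctrl replicates 2 and 4, or 1 and 3, was added after seeing the data. Positions come from GENCODE M21 (GRCm38), and near-identical copies from blastn 2.17.0 against its transcripts, at 95% identity over at least 200 bases. Promoters come from RefSeq, where all 6 genes matched.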

Additional observations from a re-analysis of the deposited data

Results flagged for a closer look

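In 9 of 34 groups of 4 libraries looked at, 1 library stood far from the other 3, by the size of the gap to its nearest neighbour within the group's range (Dixon's test at 95%). Chance flags about 1 in 20 groups where values are independent and follow a normal distribution. TPM with values at or near 0 do not meet this, and the groups share libraries. The count of flags is therefore not read against that rate. Among the 6 genes, KO replicate 2 was the high one for Ap3m1, at 54.8 TPM against 35.2 TPM in the next KO library, and Ctrl replicate 2 for the first row of Atp6v0a1, at 0.809 TPM against 0.102 TPM in the next Ctrl library. KO replicate 2 was also the high one for Vta1 (31.4 TPM) and Napg (0.791 TPM). KO replicate 1 was the high one for Rbsn (3.36 TPM) and Cog4 (1.56 TPM, the other KO libraries at 0). Ctrl replicate 4 was the high one for Arfgef1 (18.6 TPM), Pik3r4 (14.5 TPM) and Trappc10 (0.989 TPM, the other Ctrl libraries at 0).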

How the results depend on the processing

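The direction of the 6 genes was the same under each alternative that gave a value, and the sizes moved. The filter at a mean of 5 TPM gave none for Gapvd1, Mtmr2 and Atp6v0a1, which fall below it. With a pseudocount of 0.1 the log2 difference was 2.60 for Gapvd1, 4.25 for Nsf and 2.95 for Atp6v0a1, and with a pseudocount of 5 it was 0.37 for Gapvd1 and 0.69 for Atp6v0a1. Median-of-ratios scaling, which shifted the median of all tested genes by 0.70, gave -0.23 for Snx6, 1.88 for Ap3m1 and 2.12 for Atp6v0a1. Quantile normalization shifted that median by 0.36. Without Ctrl replicates 2 and 4 together Snx6 was at -0.41, Ap3m1 at 0.60 and Nsf at 0.89, and without Ctrl replicates 1 and 3 together they were at -1.62, 1.65 and 4.31. With 1 library left out, Snx6 ran from -1.33 to -0.75, Ap3m1 from 0.91 to 1.32, Gapvd1 from 0.89 to 1.28, Nsf from 2.03 to 3.20, Mtmr2 from -1.55 to -0.99 and Atp6v0a1 from 1.46 to 1.86. The first Atp6v0a1 row was under the filter and has no value with rows unsummed.

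The count of genes past the limma threshold was 377, and it was 213 with a mean of at least 5 TPM (230 genes tested), 197 under median-of-ratios scaling, 240 under quantile normalization, 188 to 358 with 1 library left out (188 without Ctrl replicate 2, 215 without KO replicate 2, 244 without Ctrl replicate 4) and 54 without Ctrl replicates 2 and 4 together. The 8 trafficking list genes past it were 3 with a mean of at least 5 TPM (3 tested), 2 under either scaling, 3 to 8 with 1 library left out and 0 without Ctrl replicates 2 and 4 together. Without Ctrl replicates 1 and 3 together, 318 genes in all and 6 of the 8 list genes passed. The fewer tested genes account for the stricter filter, and for the other settings the cause was not tested. The replicate number as a block gave 279 genes in all and 8 of the list. Correlations of deviations ran from -0.26 to 0.07 for same-numbered libraries and from -0.38 to 0.33 for differently numbered ones. The values show no pairing by number, but they are too few to exclude a pairing, and the labels name none. Depth is unknown, and no interval for counting error can be given.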
